A study of Mus musculus with 16 samples.

Results

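The structural myelin genes described here are Mbp, Mobp, Mal, Cldn11, Mag, Mog, Opalin, Cnp and Bcas1, taken as the 9 genes with these names among the 48709 genes of a table of read counts. All 9 passed the filter on low counts in every comparison. RNA was sequenced from cortical synaptosomes (SYN), a fraction enriched for pinched-off and resealed nerve terminals, of C57BL/6 mice aged 3 weeks, 5 months and 19 months, with 4 biological replicates per age. They were set against total homogenate (TH) of the cerebral cortex, the starting material before enrichment, in 4 libraries from mice of 5 months. No treatment or mutation is named in the labels for any group. Homogenate was measured at 5 months alone, so at the other ages a change in synaptosomes cannot be told apart from a change in the whole cortex. In bulk RNA, fewer cells of a type and less RNA per cell cannot be told apart either.

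Myelin is the lipid-rich membrane that oligodendrocytes wrap around axons, and in the mouse cortex most of it is laid down after birth. Compact myelin is held together by Mbp, the myelin basic protein, whose mRNA is carried out of the cell body and translated at the growing sheath, while Mag sits in the innermost wrap facing the axon and Mog on the outer surface. Mbp and Mag each make several protein isoforms from alternative exons, and the isoforms that prevail change as the sheath matures.

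Depth ran from 10.6 to 21.7 M (mega) counts per library, of which 20.2% to 57.8% lay on genes of the mitochondrial genome. The 19 months SYN replicate 1 library stood apart, with a chi-square per gene of 83.6 to 99.7 against the other libraries of its group, which differed among themselves by 4.59 to 5.34. Mitochondrial genes enter this measure, and took 57.8% of the counts of that library, against 36.1% to 37.0% in the rest of its group. In 5 months SYN the measure was 11.9 to 36.1 for replicate 4 and 19.4 to 36.1 for replicate 1. It reached 42.2 in 3 weeks SYN, between replicates 1 and 4. Values without 19 months replicate 1 and 5 months replicate 4, a pair chosen from earlier results of these data, are given where a call changes. Marker genes of neurons were detected in all groups, and their summed level was 4033 to 4533 CPM, counts scaled to library size, in 5 months SYN and 3174 to 3522 CPM in 5 months TH. Library sizes were adjusted by the trimmed mean of M values (TMM) over the 16 libraries.

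The 9 genes together made up 4628 to 6438 CPM in 3 weeks SYN, 1347 to 1746 CPM in 5 months SYN and 1407 to 1895 CPM in 19 months SYN, and 894 to 1085 CPM in 5 months TH. In this scaling the 3 weeks libraries stood well above all others, the 5 and 19 months SYN libraries overlapped, and the TH libraries lay lowest. The place of TH depended on the scaling. As a share of counts outside the mitochondrial genome, the 9 genes made up 0.207% to 0.270% in 5 months SYN and 0.178% to 0.225% in TH, which overlapped. Mbp alone supplied 47.4% to 54.8% of these counts in the 12 SYN libraries and 43.2% to 47.4% in TH. Mobp, the myelin-associated oligodendrocyte basic protein, supplied 18.3% to 24.6% in SYN and 27.3% to 30.3% in TH.

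Levels of different genes were compared per kilobase of annotated exon. This is 1 length per gene, 8403 bases for Mbp and 1870 for Cldn11, which have 16 and 1 transcripts in GENCODE M21. Transcripts in use may be shorter than it, so the order between genes depends on the annotation. In 5 months SYN, Mbp was highest at 96.7 ± 11.5 CPM per kb (SD, n = 4), followed by Mobp at 54.4 ± 7.13 and Bcas1 at 46.5 ± 3.79, the last 2 overlapping between libraries. Mal had 30.4 ± 3.14 CPM per kb, Cnp 17.5 ± 2.28, Mag 11.7 ± 1.77 and Cldn11 9.17 ± 1.39, of which Mag and Cldn11 overlapped. The lowest levels per kb were those of Mog at 5.44 ± 1.57 and Opalin at 3.14 ± 0.239, which also overlapped. In 5 months TH the order had Mal at 27.7 ± 2.74 CPM per kb above Bcas1 at 20.4 ± 1.13, with no overlap, while Mbp stayed first at 54.0 ± 7.17 and Opalin last at 4.00 ± 0.457. At 3 weeks the genes from Mobp to Mag formed a chain in which each overlapped the next, with Mbp at 319 ± 55.6 CPM per kb above it and Opalin at 8.53 ± 2.60 below.

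**Figure D1:**
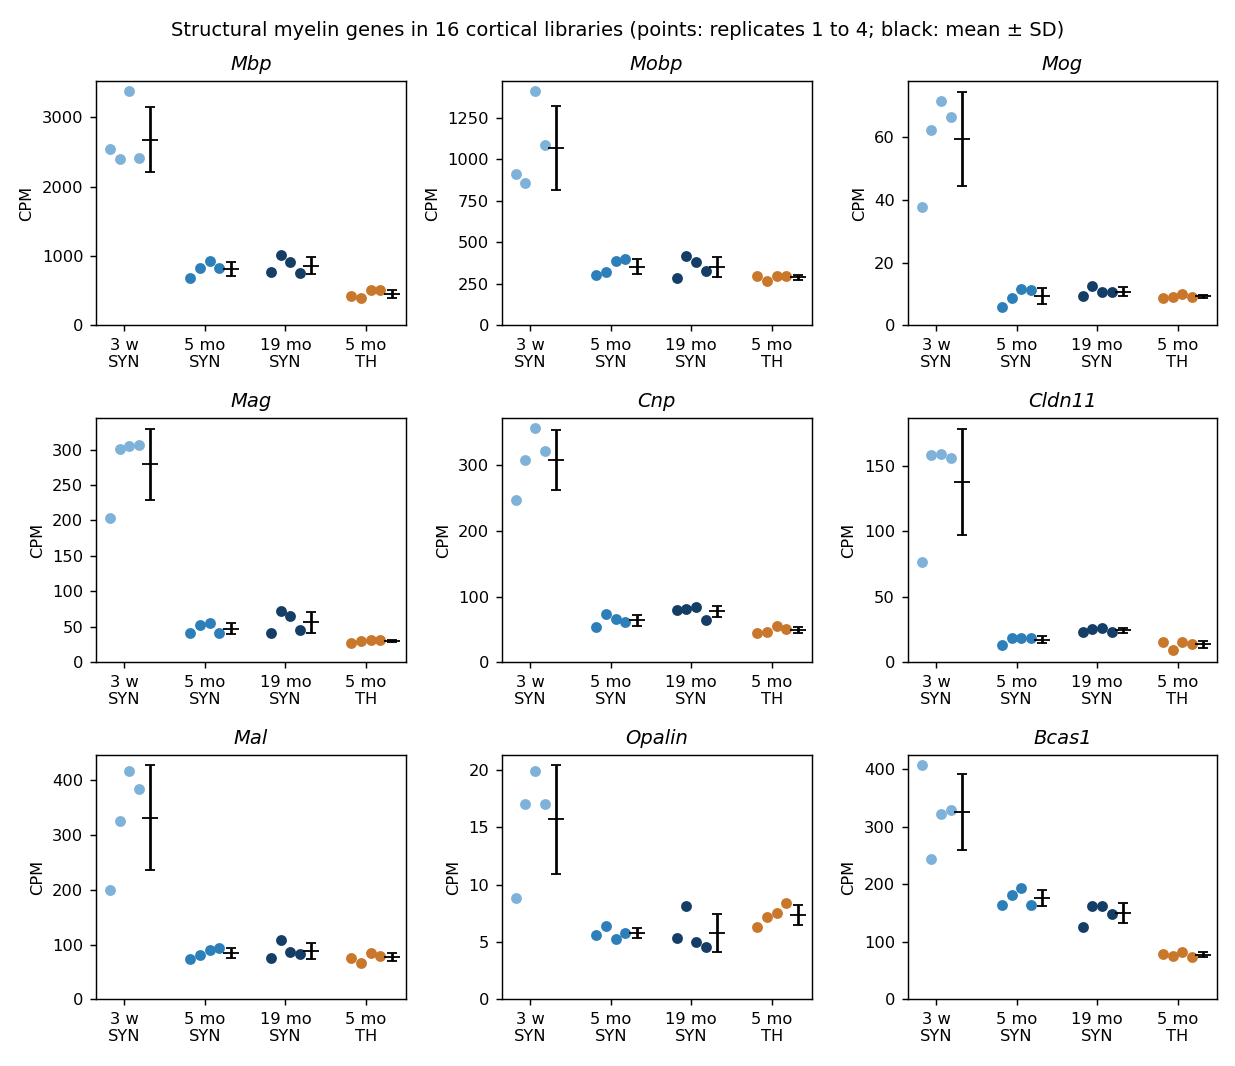
Level of each gene in CPM (linear axes from 0) in the 4 libraries of each SYN age and of 5 months TH, with the mean ± SD in black. For every gene the 3 weeks libraries lie above all 5 and 19 months SYN libraries, and for Mbp, Mobp, Mag and Bcas1 all 5 months SYN libraries lie above all TH libraries.

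Libraries of a group varied together across the 9 genes. Relative to the group mean of log2 CPM, 3 weeks SYN replicate 3, 19 months SYN replicate 2 and 5 months TH replicate 3 were above it for all 9, while 5 months SYN replicate 1, 19 months SYN replicate 4 and 5 months TH replicate 2 were below it for all 9. Over the 12 SYN libraries, which share the age steps, Pearson correlations of log2 CPM between pairs of the genes ran from 0.76 for Opalin with Bcas1 to 0.99 for Cldn11 with Cnp. Bcas1, a marker of oligodendrocytes that have just begun to myelinate, gave the lowest correlation with each of the other 8. In 3 weeks SYN replicate 1 it was at 407 CPM, the highest of its group, while Mog, Mag, Cnp, Cldn11, Mal and Opalin were each at their lowest there.

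The first comparison asks which transcripts are enriched in synaptosomes over the cortex they were made from. Of the 9 genes, 5 were higher in 5 months SYN than in 5 months TH and 0 were lower (edgeR quasi-likelihood test, Benjamini-Hochberg adjusted p under 0.05 over 17374 genes). Across all genes tested, 24.5% were higher, 25.6% lower and 50.1% one or the other. Over the 9 the median was 0.33 on the log2 scale, beside -0.05 over all genes. Groups of libraries did not overlap for 4 of the 9, all higher in SYN, beside 22.2% of all genes.

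Among the genes of compact myelin, Mbp had 685, 826, 920 and 822 CPM in 5 months SYN, against 419, 386, 501 and 508 CPM in 5 months TH. Every SYN library was above every TH library, a log2 fold change of 0.85 (SE 0.10, edgeR adjusted p = 1.052e-05) or 1.81-fold. Mobp had 305, 322, 387 and 397 CPM in SYN and 294, 264, 297 and 297 CPM in TH. Here too no libraries overlapped, but the gap was narrow, at a log2 fold change of 0.30 (SE 0.09, edgeR adjusted p = 0.01268). That call was lost without 5 months SYN replicate 4 (log2 0.22, edgeR adjusted p = 0.05274), without 5 months SYN replicate 3 (0.06134), with all 16 libraries in the fit (0.08417) and with upper-quartile scaling (0.1717).

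Mal, a raft-associated membrane proteolipid of compact myelin, had 73.9 to 93.0 CPM in SYN and 67.2 to 85.3 CPM in TH, so the groups overlapped (log2 0.15, 95% interval -0.05 to 0.35, edgeR adjusted p = 0.2138). Cldn11, the claudin that forms the tight junctions between wraps of the sheath, had 13.3 to 18.8 CPM in SYN and 9.68 to 15.7 CPM in TH. Its log2 fold change of 0.33 (95% interval -0.02 to 0.69) missed the threshold with an edgeR adjusted p of 0.112, and passed it without 5 months SYN replicate 1 (log2 0.43, edgeR adjusted p = 0.04825).

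Mag, the adhesion protein of the innermost wrap, had 40.8, 52.5, 54.9 and 41.8 CPM in 5 months SYN, against 27.8, 29.7, 31.4 and 31.5 CPM in 5 months TH. The groups did not overlap, with a log2 fold change of 0.67 (SE 0.11, edgeR adjusted p = 0.0001297). Mog, the immunoglobulin-like glycoprotein of the sheath surface, had 5.81 to 11.6 CPM in SYN and 8.79 to 9.83 CPM in TH, with the TH libraries inside the SYN range. Its log2 fold change was 0.03 (95% interval -0.39 to 0.45, edgeR adjusted p = 0.9181) and its sign turned with the scaling, to -0.11 with upper-quartile scaling. Opalin, a glycoprotein of the oligodendrocyte membrane, was the gene with a negative log2 fold change, -0.34 (95% interval -0.71 to 0.03, edgeR adjusted p = 0.1161), from 5.30 to 6.36 CPM in SYN and 6.33 to 8.37 CPM in TH. With upper-quartile scaling it was called lower (log2 -0.48, edgeR adjusted p = 0.02967).

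Cnp, the cyclic nucleotide phosphodiesterase of non-compact myelin, had 53.5 to 73.5 CPM in SYN and 44.3 to 55.6 CPM in TH, a log2 fold change of 0.39 (SE 0.10, edgeR adjusted p = 0.00654), lost with upper-quartile scaling (log2 0.24, edgeR adjusted p = 0.07005). The Cnp gene overlaps Dnajc7 on the other strand, and the summed counts over all libraries were 30783 for Cnp and 17514 for Dnajc7. The kit keeps strand, but the strand setting of the counting is not given in the sources used here, so reads shared by that pair cannot be told apart. Bcas1 differed most, with 164, 181, 193 and 164 CPM in 5 months SYN, against 78.4, 74.5, 82.6 and 73.2 CPM in 5 months TH. The lowest SYN library was far above the highest TH library (log2 fold change 1.20, SE 0.08, edgeR adjusted p = 1.709e-08), a 2.29-fold difference.

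**Figure D2:**
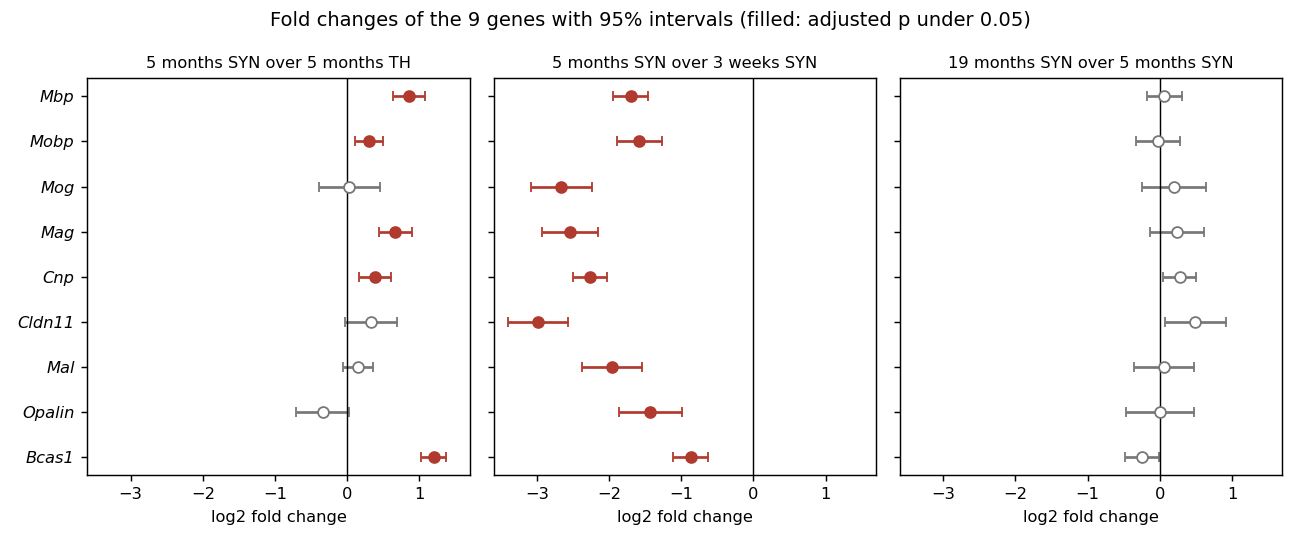
Log2 fold change of each gene with its 95% interval in 3 comparisons, filled red where the edgeR adjusted p was under 0.05. In 5 months SYN over 5 months TH 5 genes lie above 0 and pass, in 5 months over 3 weeks SYN all 9 lie below 0 and pass, and in 19 months over 5 months SYN none pass.

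A ratio within a library does not depend on how libraries are scaled. Counts of the other 8 genes were therefore set against those of Mbp in the same library, in 24 two-sided exact permutation tests over 3 comparisons, of which 14 reached p = 0.0286, the smallest that 4 against 4 libraries allow (adjusted p = 0.04898 over the 24). Relative to Mbp, 6 genes were lower in 5 months SYN than in 5 months TH. Opalin differed most, at 5.76 to 8.26 counts per 1000 Mbp counts in SYN and 15.0 to 18.6 in TH (log2 difference -1.18). Mog had 8.48 to 13.6 per 1000 in SYN and 17.8 to 23.4 in TH (log2 -0.88), Mal 98.1 to 113 in SYN and 156 to 181 in TH (log2 -0.71), and Mobp 390 to 484 in SYN and 585 to 701 in TH (log2 -0.56).

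Cldn11 (log2 difference -0.51) and Cnp (-0.47) were lower relative to Mbp in SYN as well. Bcas1 went the other way, at 200 to 240 counts per 1000 Mbp counts in SYN and 144 to 193 in TH (log2 0.34, exact permutation p = 0.0286, adjusted p = 0.04898). For Mag the ranges of 50.9 to 63.6 in SYN and 62.0 to 76.9 in TH overlapped (log2 -0.20, exact permutation p = 0.0857, adjusted p = 0.1286). With the summed counts of the other 8 members as the denominator, 11 of the 24 tests reached the smallest p, for which the adjusted p is 0.06234, so none passed. Column headers give each SYN library of 5 months a number shared with 1 TH library, and what it marks is not given in the sources used here. Taken as 4 pairs, all 8 ratios had the same direction in 4 of 4 pairs, but an exact sign-flip test of 4 pairs cannot go below p = 0.125 (adjusted p = 0.1875 over the 24), so none of the ratios passed in SYN against TH. The ratios between ages, adjusted in the same family, then did not pass either (smallest adjusted p = 0.09796).

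**Figure D3:**
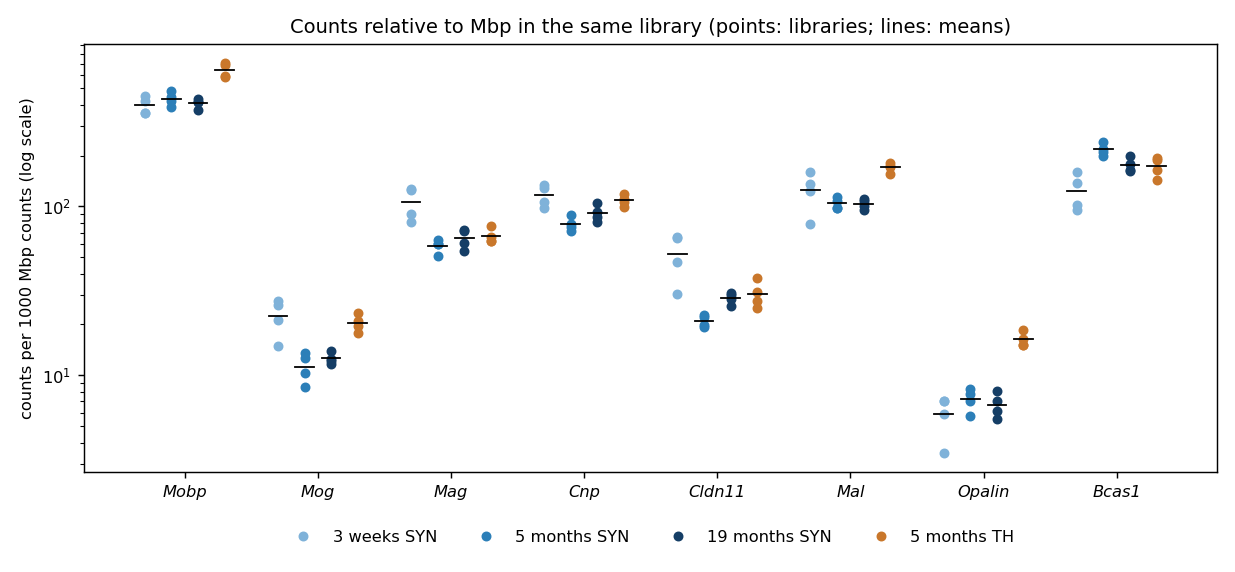
Counts of 8 genes per 1000 Mbp counts in the same library (log axis) in 3 weeks, 5 months and 19 months SYN and 5 months TH, with lines at the means. Mobp, Mog, Cnp, Cldn11, Mal and Opalin are lower in 5 months SYN than in TH without overlap, Bcas1 is higher, and Mog, Mag, Cnp and Cldn11 are lower in 5 months than in 3 weeks SYN.

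Other genes of the lineage differed between 5 months SYN and 5 months TH as well. Of all genes tested there, 24.5% were higher and 25.6% lower. Of 37 tested among 38 further myelin sheath genes, 18 were higher and 2 were lower in SYN (median log2 0.38). Plekhb1 (log2 1.31) and Cntn2 (0.69) were among those with the smallest adjusted p, while the lower ones were Aspa (-1.40) and Mpzl1 (-0.55), named after their values were seen. Of 10 genes of newly formed oligodendrocytes 6 were higher, among them Tns3 (1.61) and Gpr17 (1.45). Of 11 oligodendrocyte transcription factors 6 were higher, among them Olig1 (0.95) and Sox8 (0.60).

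Markers of other cells and the mitochondrial share moved with this comparison, in which 24.5% of all genes were higher and 25.6% lower. Genes of the mitochondrial genome took 40.1% to 50.5% of the counts in 5 months SYN and 20.2% to 25.1% in 5 months TH, without overlap. With these genes removed, the count of members was again 5 higher and 0 lower. TMM scaling is a trimmed mean over all tested genes, so this removal could shift it little. The part of the mitochondrial share in the values was not tested. All 8 astrocyte markers (6580 to 7625 CPM summed in SYN, 2873 to 3440 in TH) and all 8 microglia markers (164 to 195 CPM in SYN, 82.0 to 87.5 in TH) were higher in SYN. So were 6 of 8 oligodendrocyte precursor markers (724 to 787 CPM in SYN, 401 to 426 in TH). Of 8 endothelial and mural markers 7 were lower (40.3 to 64.4 CPM in SYN, 162 to 228 in TH), and none of these lists had a marker at 0 in a whole group. The neuron list split, with 3 of 9 higher and 2 lower. The part of these cells in the values of the myelin genes was not tested.

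The second comparison follows synaptosomes from 3 weeks, while cortical myelin is being formed, to 5 months. All 9 genes were lower in 5 months than in 3 weeks SYN, and no library of 5 months reached the lowest of 3 weeks for any of them. Across the 15344 genes tested in the 12 SYN libraries, 11.3% were lower and 13.3% higher (edgeR, adjusted p under 0.05), and 12.1% were lower without overlap. The median log2 fold change of the 9 was -1.95, beside 0.00 over all genes, of which the lowest 5% began at -0.79. The ages share their 5 months libraries with the comparisons against TH and with 19 months.

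Among the genes of compact myelin, Mbp had 685, 826, 920 and 822 CPM in 5 months SYN, against 2536, 2398, 3373 and 2405 CPM in 3 weeks SYN, a log2 fold change of -1.70 (SE 0.12, edgeR adjusted p = 1.428e-10). Mobp had 305, 322, 387 and 397 CPM at 5 months, against 911, 856, 1415 and 1087 CPM at 3 weeks (log2 -1.58, SE 0.15, edgeR adjusted p = 3.103e-07). Both were highest in 3 weeks replicate 3, and their fitted folds were 0.307 for Mbp and 0.334 for Mobp. Mal had 73.9 to 93.0 CPM at 5 months and 199 to 418 CPM at 3 weeks (log2 -1.95, SE 0.19, edgeR adjusted p = 7.467e-06).

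Cldn11 fell most, to 13.3, 18.8, 18.3 and 18.2 CPM in 5 months SYN, against 76.7, 158, 159 and 155 CPM in 3 weeks SYN. Its log2 fold change was -2.98 (SE 0.20, edgeR adjusted p = 2.509e-08), the 13th lowest of all 15344 genes. Without 3 weeks replicate 1 the log2 fold change was -3.18.

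Mag had 40.8, 52.5, 54.9 and 41.8 CPM at 5 months, against 204, 301, 305 and 306 CPM at 3 weeks (log2 -2.54, SE 0.18, edgeR adjusted p = 6.982e-08). Mog had 5.81, 8.52, 11.6 and 11.2 CPM at 5 months, against 37.8, 62.4, 71.6 and 66.4 CPM at 3 weeks (log2 -2.66, SE 0.20, edgeR adjusted p = 8.9e-09). In both genes 3 weeks replicate 1 was the lowest of its group and still far above every 5 months library. Opalin had 5.30 to 6.36 CPM at 5 months and 8.81 to 19.9 CPM at 3 weeks (log2 -1.43, SE 0.22, edgeR adjusted p = 1.847e-05).

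Cnp had 53.5, 73.5, 65.6 and 61.7 CPM at 5 months, against 247, 308, 356 and 321 CPM at 3 weeks (log2 -2.26, SE 0.11, edgeR adjusted p = 5.737e-14). Bcas1 changed least, with 164, 181, 193 and 164 CPM at 5 months, against 407, 244, 321 and 329 CPM at 3 weeks (log2 -0.87, SE 0.12, edgeR adjusted p = 5.153e-06). Its interval of -1.11 to -0.63 did not reach that of any member but Opalin, whose interval was -1.87 to -0.99.

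Relative to Mbp in the same library, 4 genes were lower in 5 months than in 3 weeks SYN, each at the smallest exact permutation p of 0.0286 (adjusted p = 0.04898). These were Cldn11 (log2 difference -1.24), Mog (-0.97), Mag (-0.83) and Cnp (-0.56). Bcas1 was higher relative to Mbp, at 200 to 240 counts per 1000 Mbp counts at 5 months and 95.2 to 161 at 3 weeks (log2 0.84). For Mobp (log2 0.13), Mal (-0.21) and Opalin (0.34) the tests did not pass. With the summed counts of the other 8 members as the denominator, 5 tests of this step reached the smallest p. None passed there (exact permutation test, smallest adjusted p = 0.06234).

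The further myelin sheath genes were less uniform, with 15 of 37 lower and 4 higher (median log2 -0.34), beside 11.3% and 13.3% of all genes. Sirt2 (log2 -1.92), Nfasc (-1.31), a cell adhesion gene of nodes and axon initial segments, and Lpar1 (-1.40) were among those with the smallest adjusted p. The 4 that were higher at 5 months were Hapln2 (1.27), which codes for a link protein of the nodal matrix, Anln (0.83), Sept4 (0.42) and Plekhb1 (0.28), named after their values were seen. Anln and Sept4 code for a septin-binding protein and a septin of the inner sheath. All 10 genes of newly formed oligodendrocytes were lower, among them Gpr17 (-2.23), a receptor of committed precursors, Enpp6 (-2.93), Tmem2 (-1.57) and Nfasc, which is in both lists. Their summed level was 504 to 538 CPM at 5 months and 1140 to 1338 CPM at 3 weeks, and the part of such cells in the fall of the 9 genes was not tested.

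Of the other cell lists, 4 of 8 precursor markers were lower at 5 months (724 to 787 CPM summed at 5 months, 850 to 934 at 3 weeks). Of 5 meninges markers 3 were lower (16.6 to 28.5 CPM at 5 months, 83.9 to 149 at 3 weeks), and of 8 astrocyte markers 2 were lower. Microglia markers had 3 of 8 higher, and endothelial and mural markers 3 of 7. Neuron markers had 2 of 9 higher and 3 lower. Across all genes, 11.3% were lower and 13.3% higher. Each list was detected in both groups, and the part of these lists in the result was not tested.

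Of 11 transcription factors of the lineage 6 were lower at 5 months and 0 higher, beside 11.3% and 13.3% of all genes. Olig1 (log2 -1.35), Olig2 (-1.04), Zfp488 (-2.03) and Myrf (-0.70), the factor that switches on myelin genes, had the smallest adjusted p. Promoters of the members were searched for its core sites, CTGGCAC and CTGGTAC, on both strands, and for the Sox10 sites ACAAAG and ACAATG, over 250 bases before to 50 bases after each RefSeq start (build GRCm38.p6). Of the 9 genes 7 have a window there. A Myrf core was found in 4 of the 7 (Cnp, Mag, Mog and Opalin), beside 8.1% of 27025 genes with a core in any of their windows, and a Sox10 site in 4 of the 7 (Cnp, Mag, Mobp and Opalin), beside 31.7% of genes. By window, a Myrf core was in 5 of 9 for the members and in 7.1% of all 32851, and a Sox10 site in 5 of 9 and in 28.6%. Mag has 3 of the 9 windows, of which 2 overlap and share 1 core, and 1 has no core. A match describes the letters and not binding. The stretches before the gene that hold a core upstream of the start are shown on the gene's strand, from RefSeq's promoter table, with the core in capitals, which begins 68 bases before the RefSeq start in Mag (chr7:30914874-30915013, minus strand), 81 in Cnp (chr11:100574789-100574903, plus strand) and 83 in Mog (chr17:37023399-37023548, minus strand).
Mag: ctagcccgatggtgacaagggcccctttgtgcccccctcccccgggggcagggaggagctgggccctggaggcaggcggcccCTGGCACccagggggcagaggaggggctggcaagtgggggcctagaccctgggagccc
Cnp: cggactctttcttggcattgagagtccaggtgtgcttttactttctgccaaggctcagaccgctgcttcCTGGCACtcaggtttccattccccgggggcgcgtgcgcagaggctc
Mog: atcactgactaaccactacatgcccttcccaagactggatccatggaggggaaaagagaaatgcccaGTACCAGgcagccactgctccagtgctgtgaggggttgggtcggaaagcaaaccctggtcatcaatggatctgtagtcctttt
The Mag and Cnp stretches hold the core as CTGGCAC, and the Mog stretch holds the reverse complement of CTGGTAC.

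The third comparison asks what changes in synaptosomes from 5 to 19 months. None of the 9 genes differed between 19 and 5 months SYN at an edgeR adjusted p under 0.05, beside 0.3% of the 15344 genes tested (0.13% higher and 0.169% lower), and none did by the DESeq2 Wald test. At an unadjusted edgeR p under 0.05 there were 3, beside 13.7% of all genes. Cldn11 had 22.8, 25.7, 25.8 and 23.0 CPM at 19 months, against 13.3, 18.8, 18.3 and 18.2 CPM at 5 months. Its libraries did not overlap (log2 0.49, SE 0.20, edgeR adjusted p = 0.2859), a pattern that 3.53% of all genes showed in that direction.

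The Cldn11 call depended on the fit. It passed without the filter on low counts (edgeR adjusted p = 0.009444), with only the 8 libraries compared (0.0448), with a replicate block (0.02754) and without 3 weeks SYN replicate 1 (0.01242), which is in neither group but enters the fit. Cnp had 65.0 to 83.9 CPM at 19 months and 53.5 to 73.5 CPM at 5 months, which overlapped (log2 0.28, SE 0.11, edgeR adjusted p = 0.26). Bcas1 had 125, 162, 161 and 148 CPM at 19 months, against 164, 181, 193 and 164 CPM at 5 months. Its libraries did not overlap (log2 -0.25, SE 0.12, edgeR adjusted p = 0.352), as for 4.53% of all genes in that direction.

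Relative to Mbp in the same library, Cldn11 was higher at 19 months, with 25.6 to 30.7 counts per 1000 Mbp counts at 19 months and 19.4 to 22.8 at 5 months (log2 0.44), and Bcas1 was lower, with 161 to 198 at 19 months and 200 to 240 at 5 months (log2 -0.31). Both reached the smallest exact permutation p of 0.0286 (adjusted p = 0.04898 over the 24 tests of the 3 comparisons). With the summed counts of the other 8 members as the denominator, 1 test of this step reached that p. None passed there (exact permutation test, smallest adjusted p = 0.06234).

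For the remaining genes the libraries of 19 and 5 months overlapped and the 95% intervals included 0. Mbp had 748 to 1006 CPM at 19 months and 685 to 920 CPM at 5 months (log2 0.06, 95% interval -0.18 to 0.31), and Mobp 282 to 416 CPM at 19 months and 305 to 397 CPM at 5 months (log2 -0.02, 95% interval -0.33 to 0.29). Mag (log2 0.24, 95% interval -0.14 to 0.62), Mog (0.20, -0.24 to 0.64), Mal (0.06, -0.35 to 0.47) and Opalin (0.00, -0.46 to 0.47) were the others. Of the further myelin sheath genes, the transcription factors and the genes of newly formed oligodendrocytes, 0 passed. Without 5 months SYN replicate 4 and 19 months SYN replicate 1, still 0 of the 9 passed, and Cldn11 had a log2 fold change of 0.56 (edgeR adjusted p = 0.3857).

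Between 19 months and 3 weeks all 9 genes were lower, beside 9.44% of all genes, with log2 fold changes from -1.12 for Bcas1 to -2.49 for Cldn11. No libraries of these ages overlapped for any of the 9, beside 11.8% of all genes that were lower without overlap. The 2 age steps were then compared in the same fit, as the change from 5 to 19 months minus that from 3 weeks to 5 months. This difference was above 0 for all 9 genes (edgeR adjusted p under 0.05, beside 4.97% of all genes above and 6.75% below 0), from log2 0.63 for Bcas1 to 3.48 for Cldn11. The 5 months libraries enter both steps with opposite signs. For Bcas1 the edgeR adjusted p was 0.04542, and leaving out any of 8 single libraries or adding a replicate block ended the call, with adjusted p up to 0.1389 without 5 months SYN replicate 1. Leaving out 5 months SYN replicate 4 and 19 months SYN replicate 1 together also ended the call (log2 0.65, edgeR adjusted p = 0.07263). For Opalin it was ended without 5 months SYN replicate 3 (edgeR adjusted p = 0.05232).

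Genes with a pattern over the 12 SYN libraries most like the mean of the 9 were picked from 9288 genes with at least 5 CPM on average, by the Pearson correlation of log2 CPM. Among the 8 highest were Gsn (r = 0.994), Nfasc (0.992), Lpar1 (0.992), Adamts4 (0.989), Sema6a (0.989), Tspan2 (0.978) and Gpr17 (0.978). Gsn, which codes for the actin-severing protein gelsolin, had mean levels of 244 CPM at 3 weeks, 34.6 at 5 months and 38.4 at 19 months. These correlations describe libraries that share 2 age steps and carry no test.

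Isoform usage was read from the authors' deposited tables of LeafCutter and DIEGO, which compare the 3 ages of synaptosomes by reads that span introns. LeafCutter groups introns that share an end into clusters and gives each intron's share of its cluster, fitted per age with no value per library. Mbp, Mag, Bcas1 and Mobp have 9 clusters in the authors' deposited tables, and Mog, Cnp, Cldn11, Mal and Opalin have none there. Of the 9, 5 were called in 5 months against 3 weeks (adjusted p under 0.05), beside 6.61% of all 4250 clusters, and 5 in 19 months against 3 weeks, beside 4.81%. In 19 against 5 months 0 were called, beside 0.768%.

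Mag is spliced to a large or a small form. A 45-base exon near its end (chr7:30900352-30900396, minus strand, in transcripts Mag-201 and Mag-203 of GENCODE M21) carries a stop codon, so a transcript that keeps it codes for the small protein with its own short tail, and a transcript that skips it codes for the large protein with the longer cytoplasmic tail. In the authors' deposited table, inclusion of this exon was 70.8% at 5 months and 17.5% at 3 weeks, with an adjusted p of 3.05e-06 for the cluster. Between 19 and 5 months their table gave 70.5% and 70.8% (adjusted p = 0.689), and between 19 months and 3 weeks 70.7% and 17.5% (adjusted p = 6.89e-06). Inclusion was computed here as the mean usage of the introns on both sides of the exon over that mean plus the usage of the intron that skips it. Sequences from the GENCODE transcripts show the choice, first the exon with its stop codon in capitals, then the joint that keeps the exon, with its first 20 bases in capitals, and the joint that skips it, with the first 20 bases of the last exon in capitals.
Mag 45-base exon: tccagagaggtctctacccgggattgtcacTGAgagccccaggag
Mag joint with the exon: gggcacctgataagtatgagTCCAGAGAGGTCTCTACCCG
Mag joint without the exon: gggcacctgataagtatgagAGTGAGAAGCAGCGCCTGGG
The exon has 30 coding bases. The total level of Mag fell over the same step, so the usage describes how the remaining transcripts divide and not their number.

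At the other end of Mag, the usage of introns before the second exon differed between ages as well. The intron that joins that exon straight to the most upstream exon had a usage of 87.3% at 5 months and 43.1% at 3 weeks in the authors' deposited table (adjusted p = 0.00016 for the cluster). The intron that joins it to an exon lying between them, had 8.37% at 5 months and 37.5% at 3 weeks there. In GENCODE that exon is the first of Mag-201, Mag-204 and Mag-207 and an internal exon of Mag-203, so a change of start site and a change of splicing cannot be told apart. At 19 months the straight intron had 68.6% in the authors' deposited table, against 41.5% at 3 weeks, and the cluster did not pass (adjusted p = 0.107).

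Mbp has a 78-base coding exon that is kept in 5 of its 16 transcripts in GENCODE M21. A 123-base coding exon further on varies as well, so the 78-base exon alone does not mark the larger forms. In the authors' deposited table its inclusion was 9.66% at 5 months and 26.2% at 3 weeks (adjusted p = 1.91e-08 for the cluster). Their table for 19 against 5 months gave 8.91% and 9.73% (adjusted p = 0.806), and that for 19 months against 3 weeks 8.90% and 26.2% (adjusted p = 1.74e-06). A second Mbp cluster toward the end of the gene was called in the authors' deposited tables with smaller changes, of at most 3.88 percentage points for 5 months against 3 weeks (adjusted p = 0.0165).

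Bcas1 has 3 neighbouring coding exons of 42, 165 and 66 bases, each a multiple of 3, that can be skipped together. The intron that passes over all 3 is annotated in Bcas1-208 alone. Its usage in the authors' deposited table was 32.6% at 5 months and 7.49% at 3 weeks (adjusted p = 1.91e-08), and 24.8% at 19 months and 7.90% at 3 weeks (adjusted p = 3.21e-14). In their table for 19 against 5 months it was 24.7% and 30.3% (adjusted p = 0.781). The exons lie on the minus strand of chromosome 2 at chr2:170370450-170370491, chr2:170366364-170366528 and chr2:170356248-170356313, and are shown in that order from the GENCODE transcripts, since they are what the skipped form lacks.
Bcas1 42-base exon: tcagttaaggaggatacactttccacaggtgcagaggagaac
Bcas1 165-base exon: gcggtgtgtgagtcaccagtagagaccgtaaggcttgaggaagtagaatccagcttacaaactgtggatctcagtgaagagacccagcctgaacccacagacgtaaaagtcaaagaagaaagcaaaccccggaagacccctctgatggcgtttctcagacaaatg
Bcas1 66-base exon: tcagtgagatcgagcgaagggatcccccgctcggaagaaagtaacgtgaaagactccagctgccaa
Another intron of this cluster, which skips the 42- and 165-base exons and has no annotated transcript, was fitted at 2.45% for 5 months in the authors' deposited table against 3 weeks and at 9.94% for 5 months in that against 19 months. Its direction between 5 months and 3 weeks is therefore not read from these fits. The authors' deposited DIEGO table gives this junction a score of -1.01 for 5 months against 3 weeks (q-value 0.0464). As that sign is read below, this is a higher share at 5 months.

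**Figure D4:**
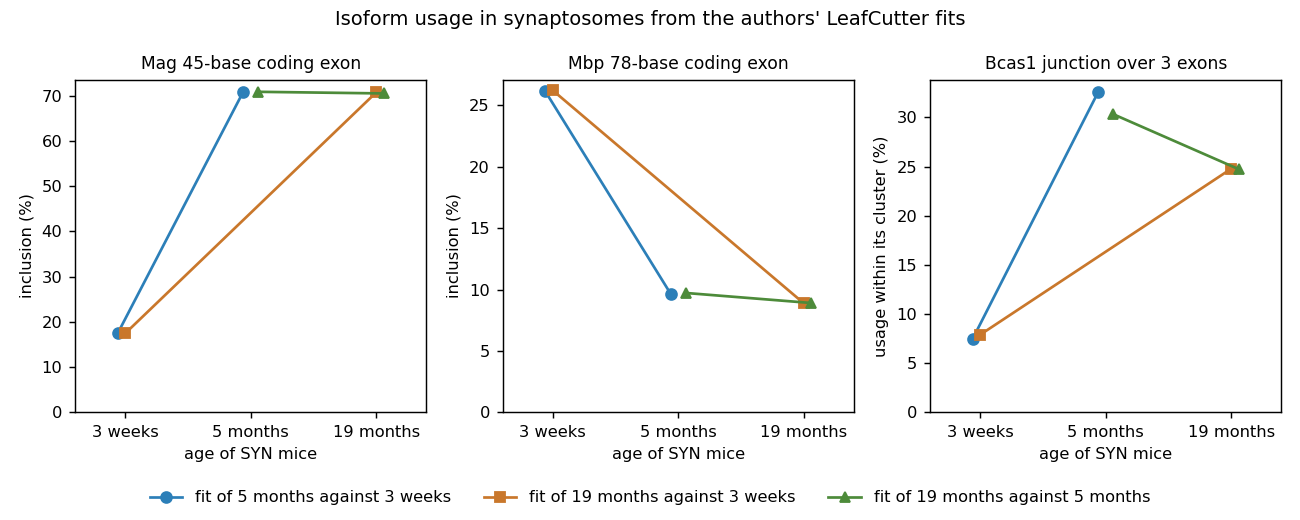
Inclusion of the Mag 45-base exon and the Mbp 78-base exon, and usage of the Bcas1 intron over 3 exons, in percent by age of the synaptosome mice, from the authors' LeafCutter fits (1 colour and marker per fit of a pair of ages). Each changes between 3 weeks and 5 months, for Mag to 70.8% against 17.5%, and lies close to its 5 months value at 19 months for Mag and Mbp.

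Mobp had a cluster called between 19 months and 3 weeks in the authors' deposited table (adjusted p = 0.0186). The usage of its main intron was 65.7% at 19 months, with a change of -12.4 percentage points from 3 weeks. The same cluster was not called between 5 months and 3 weeks (adjusted p = 0.215) or between 19 and 5 months (adjusted p = 0.345).

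DIEGO tests single junctions, and the sign of its score is not explained in the files. Among junctions shared with LeafCutter whose usage changed by at least 0.2, the score had the opposite sign to the usage change in 92.7% of 370 for 5 months against 3 weeks, so a negative score is read here as a higher share at the later age. In the authors' deposited DIEGO table for 5 months against 3 weeks, 5 of 16 Mbp junctions, 4 of 14 in Mag, 3 of 16 in Bcas1, 1 of 12 in Mobp and 1 of 8 in Mog had a q-value under 0.05, beside 1.48% of all junctions. All 3 junctions of the Mag 45-base exon were among them, with scores of -1.63 and -1.37 for those that keep it and 1.16 for that which skips it. The junctions of Mobp and Mog under that threshold are in no annotated transcript. That of Mog lies outside the annotated gene, and that of Mobp ends beyond its gene. Other Mobp junctions with nearby ends did not pass. Neither junction is therefore read here as a change between isoforms of Mobp or Mog. The 0 junctions of Cnp, Cldn11, Mal and Opalin under that threshold come from 2 to 5 junctions per gene.

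For 19 against 5 months 0 junctions of any gene had a q-value under 0.05 in the authors' deposited DIEGO table. The smallest p there and for 5 months against 3 weeks was 0.0209, which equals the normal approximation of a rank-sum test of 4 against 4, for which the exact value is 0.0286, and the tables' own column calls 0 junctions significant.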

How the data were processed

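RNA was measured in 12 synaptosome and 4 homogenate libraries. Gene counts are the authors' deposited whole-number counts, with 0 blank gene names and 0 count columns of no sample. The submitters' processing notes name GRCm38.p6, featureCounts (Subread), Trimmomatic 0.38, cutadapt 1.18 and bcl2fastq 2.20.0.422. Which aligner, strand option and annotation release were used is not given in the sources used here. LeafCutter tables, as the authors deposited them, give a usage fraction per intron and age, a log effect size and a p-value per cluster, and their deposited DIEGO tables a score per junction with a p-value and q-value, per the file headers.

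Samples were grouped by title. Counts were filtered with filterByExpr, TMM-scaled, and put through the robust quasi-likelihood F test of edgeR 4.0.16 (R 4.3.3), adjusted by the Benjamini-Hochberg method over all genes, on 8 libraries for SYN against TH and 12 SYN libraries for ages, with alternatives that include DESeq2 1.42.0. Ratios to Mbp are log2((count + 0.5)/(Mbp count + 0.5)), tested with scipy 1.17.1. Log2 CPM have a pseudocount of 0.5. Sequences and exons come from GENCODE M21 and the RefSeq promoter table of GRCm38.p6. All 9 members are named, with up to 4 called genes of each of 11 other lists by adjusted p, of which some are not reported here. The members and lists were chosen with earlier results of these data known. Depth was 10.6 to 21.7 M counts, and the intervals cover the spread between libraries.

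In simulated data, 62.9% of genes changed by 1 log2 unit were recovered in 5 months against 3 weeks, with 7.33 false calls, and 58.3% in SYN against TH, with 3.67. These are means over repeated draws. Far fewer genes were changed there than the 24.6% and 50.1% called in the data, so a broad shift between groups was not covered. After group means were removed, SYN and TH libraries of the same number correlated at 0.0259 to 0.173, and those of different numbers at -0.115 to 0.0866. Not all of the former were over 0.1, so the main fit did not take the numbers as pairs. This check does not settle the question. Per the file headers, libraries of the same number also share a second number. Per the labels' protocols homogenate was set aside before enrichment, so libraries of the same number may be pairs. A test within pairs was added after seeing the data. Among pairs of libraries within a group, none was a copy of the other, and pairs across groups were not checked.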

Additional observations from a re-analysis of the deposited data

Results flagged for a closer look

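In 40 groups of 4 libraries (each gene in each group, and the summed level of the 9), 5 held a library whose gap to the nearest other passed Dixon's critical value. Chance alone marks about 1 in 20 independent groups. These groups share libraries and the genes vary together, so the 5 are not set against that rate. Mbp in 3 weeks SYN replicate 3 was at 3373 CPM, above 2398 to 2536 CPM in the other 3. Mag in 3 weeks SYN replicate 1 was at 204 CPM, below 301 to 306 CPM, and Cldn11 in the same library was at 76.7 CPM, below 155 to 159 CPM. Cldn11 in 5 months SYN replicate 1 was at 13.3 CPM, below 18.2 to 18.8 CPM. Mobp in 5 months TH replicate 2 was at 264 CPM, below 294 to 297 CPM.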

How the results depend on the processing

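All 9 members were called lower in 5 months and in 19 months against 3 weeks SYN under every scaling, filter, tool, block and left-out library tried. In SYN against TH, upper-quartile scaling gave 3 members higher and 1 lower, and leaving out a library gave 4 to 6 higher and 0 lower. Called genes in SYN against TH numbered 3724 to 4199 higher and 3888 to 5191 lower with a library left out, those in 5 months against 3 weeks 1433 to 2085 and 1261 to 1812, and those in 19 months against 3 weeks 1071 to 1647 and 1039 to 1526. In 19 against 5 months SYN (20 higher, 26 lower) the counts were 142 and 150 without a filter, 114 and 196 by DESeq2's Wald test, 124 and 140 with a replicate block and 132 and 188 with only the 8 libraries compared. Lower genes numbered 14 with all 16 libraries. With a library left out there were 0 to 132 higher and 0 to 152 lower (2 and 3 without both 5 months replicate 4 and 19 months replicate 1), and 1 member, Cldn11, was called without a filter, with the block, with 8 libraries and without 3 weeks replicate 1. For the difference of the 2 age steps, leaving out 1 library or that pair gave 464 to 1036 higher and 644 to 1281 lower genes, with 8 or 9 members higher. The block gave 8, without Bcas1, and beside Cldn11 changed no other member's call. The sign of Mog in SYN against TH was negative with DESeq2 size factors (-0.029), upper-quartile scaling (-0.11), the Wald test (-0.029) and the block (-0.0077), and ran from -0.099 to 0.19 with a library left out. In 19 against 5 months, leaving out libraries gave -0.023 to 0.13 for Mbp, -0.11 to 0.14 for Mobp, -0.058 to 0.18 for Mal and -0.23 to 0.098 for Opalin, which was -0.020 with the block. With the other 8 members as the denominator, 0, 0 and 0 ratios were called in the 3 comparisons, and 2 signs turned, to 0.0077 for Mag in SYN against TH and 0.021 for Mal in 19 against 5 months (-0.044 to 0.029 with a library left out). Taking SYN and TH libraries of 1 number as pairs (a replicate block for the ratios, chosen after seeing the data), 0, 0 and 0 were called, since 4 pairs cannot go below an exact p of 0.125. With a library left out, 0 ratios were called, since 3 against 4 cannot go below an exact permutation p of 0.0571. The causes were not tested. Called clusters numbered 4 in place of 5 against 3 weeks at both later ages, with an adjusted p under 0.01 or a usage change of at least 0.1, and stayed at 0 in 19 against 5 months. With 4 libraries a group, genes of few counts such as Mog and Opalin have wide intervals.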

Other observations

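Genes that carry and regulate Mbp mRNA moved in both directions. In 5 months SYN against 5 months TH, 24.5% of all genes were higher and 25.6% lower. Of 8 genes that carry or regulate Mbp mRNA, 5 were higher and 2 lower there (edgeR adjusted p under 0.05, median log2 0.36). The higher ones with the smallest adjusted p were Kif1b (log2 1.07), a kinesin, Qk (0.94), an RNA-binding regulator of myelin transcripts, and Tnpo2 (0.81), and the lower ones were Hnrnpa2b1 (-0.49), which binds the transport element of Mbp mRNA, and Hnrnpk (-0.47). In 5 months against 3 weeks SYN, 4 were lower, among them Fyn (log2 -0.83), a kinase that relieves the block on Mbp translation, Hnrnpf (-0.53) and Qk (-0.38), and Kif1b was higher (0.41). Of all genes, 11.3% were lower and 13.3% higher in that step. In 19 against 5 months SYN 0 of the 8 passed the edgeR adjusted threshold. Most of these genes are also expressed by neurons.

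Genes of peripheral myelin were at low levels. Of 5, 2 passed the filter on low counts, and 0 of these passed the edgeR adjusted threshold in 5 months SYN against TH or between any pair of ages.

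Far upstream, Mbp has junctions of longer transcripts known as golli-Mbp. In the authors' deposited DIEGO table for 5 months against 3 weeks, 3 of them had scores of -1.45, -1.77 and -1.16, each with a q-value of 0.0464, which is a higher share of Mbp junction reads at 5 months as the sign is read here. The scores for 19 months against 3 weeks were -1.45, -1.24 and -1.06 (q-value 0.0489) in the authors' deposited table. For 5 months against 3 weeks the DIEGO p behind these calls was 0.0209, the smallest of any junction there. The tables' own column calls 0 junctions significant. The total level of Mbp fell from 3 weeks to both later ages, so a higher share need not mean more of these transcripts.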
